A study of Homo sapiens with 6 samples.

Results

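The genes described here code for the enzymes and 1 regulatory subunit that build and break down glycogen. They were measured in A2780 cells, an established line from a human ovarian carcinoma. They are 9 genes of the 60564 in the count table: PYGM, PYGL, PYGB, GYS1, GBE1, PGM1, PPP1R3C, UGP2 and GYG1. Each symbol matched 1 row, and all 9 were among the 17006 genes kept by a filter on low counts. They were chosen by name from the pathway, with earlier results of the same contrast of the same libraries known. Their differences between the groups are therefore given as a description, and nothing is supported with them. RNA was sequenced in 3 libraries of a group labelled GPT2si and 3 of a group labelled GPT2sinc, and no other agent, time or treatment is given for either. GPT2 is the mitochondrial alanine aminotransferase, and the series concerns its deficiency. The labels do not spell out si and sinc, nor whether the 3 libraries of each group stem from cultures grown apart; all are from this single line.

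Glycogen is a branched polymer in which cells store glucose. PGM1 interconverts glucose 6-phosphate and glucose 1-phosphate, UGP2 turns glucose 1-phosphate into UDP-glucose, GYG1 (glycogenin) primes the chain, GYS1 (glycogen synthase) extends it and GBE1 adds the branches. The phosphorylases PYGM, PYGL and PYGB, named for muscle, liver and brain, release glucose 1-phosphate from the chain ends. PPP1R3C brings protein phosphatase 1 to glycogen, where it activates the synthase and inactivates phosphorylase. In other cells low oxygen is known to raise glycogen and several of these genes through the factor HIF-1, whose binding sites hold the letters ACGTG or GCGTG.

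In brief, the levels of 6 of the 9 genes lay lower in every GPT2si library than in any GPT2sinc library: PPP1R3C, PGM1, PYGM, GBE1, UGP2 and GYS1. PPP1R3C was the farthest apart, at 49.6% of its GPT2sinc level. GYG1 lay higher in every GPT2si library. PYGL and PYGB overlapped between the groups. Over all tested genes, 13.2% were lower without overlap and 14.9% higher without overlap. With edgeR's quasi-likelihood test and Benjamini-Hochberg adjustment over all tested genes, PYGM, PGM1 and PPP1R3C had adjusted p under 0.05 and were lower, and 0 of the 9 were higher. That test called 0.841% of all genes lower and 0.576% higher. The median log2 fold change was −0.42 over the 9 genes and −0.01 over all tested genes. Because the genes were chosen with this contrast known, these counts describe them and are not read as a result.

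The sequence before the start site is shown for 4 of the genes: PPP1R3C and GBE1, whose levels differed by unlike amounts in the same direction, GYS1, the most abundant of the 9, and GYG1, which differed the other way. Each run is the 250 bases before a RefSeq start on GRCh38.p14, 5′ to 3′ on the gene's strand, and capitals mark each ACGTG or GCGTG on either strand. PPP1R3C lies at chr10:91633072-91633321 (minus strand), GBE1 at chr3:81761646-81761895 (minus strand), GYS1 at chr19:48993310-48993559 (minus strand) and GYG1 at chr3:148991290-148991539 (plus strand). The GENCODE 29 gene spans, given below, begin farther upstream for GBE1 and GYG1. They hold the whole GBE1 window and most of the GYG1 window.
PPP1R3C: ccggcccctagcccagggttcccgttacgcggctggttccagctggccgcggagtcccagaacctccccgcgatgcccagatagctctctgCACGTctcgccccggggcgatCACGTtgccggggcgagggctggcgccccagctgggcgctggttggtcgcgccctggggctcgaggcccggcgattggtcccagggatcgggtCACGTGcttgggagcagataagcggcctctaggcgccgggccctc
GBE1: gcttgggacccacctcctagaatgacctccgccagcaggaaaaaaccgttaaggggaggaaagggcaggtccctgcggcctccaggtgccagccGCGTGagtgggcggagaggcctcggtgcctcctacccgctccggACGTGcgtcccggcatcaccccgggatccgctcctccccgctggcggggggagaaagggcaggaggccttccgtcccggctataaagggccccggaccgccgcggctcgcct
GYS1: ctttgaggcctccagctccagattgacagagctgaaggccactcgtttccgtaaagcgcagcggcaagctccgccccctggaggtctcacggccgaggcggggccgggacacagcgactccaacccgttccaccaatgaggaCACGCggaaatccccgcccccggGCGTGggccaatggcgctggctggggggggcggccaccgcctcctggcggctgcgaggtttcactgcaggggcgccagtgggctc
GYG1: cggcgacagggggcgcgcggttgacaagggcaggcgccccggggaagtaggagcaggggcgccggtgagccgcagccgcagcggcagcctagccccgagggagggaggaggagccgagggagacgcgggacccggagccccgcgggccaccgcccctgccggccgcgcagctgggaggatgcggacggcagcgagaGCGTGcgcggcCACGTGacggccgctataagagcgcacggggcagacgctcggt

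PPP1R3C held ACGTG at 4 positions, once as printed and 3 times on the other strand. A pair of these overlap in the palindrome CACGTG, which begins 45 bases before the start. GYG1 held the same CACGTG, 43 bases before its start, and a GCGTG 54 bases before it. GBE1 held 1 ACGTG and 1 GCGTG, 112 and 156 bases before the start, and GYS1 held GCGTG at 2 positions and no ACGTG. RefSeq promoters were found for 8 of the 9 genes, with 11 start sites in all, and PYGM was not matched. Of these 11 windows, 8 held ACGTG or GCGTG, as did 43.2% of 35116 promoter windows of the same length over all genes with an entry. ACGTG alone was in 5 of the 11 and in 18.5% of all windows, and CACGTG was in 2 of the 11 and in 6.34%. Each window printed above holds the motif, while the PYGL window and those of PGM1 start sites 1 and 3 held neither ACGTG nor GCGTG. The motif was present both in PPP1R3C, which was lower with GPT2si, and in GYG1, which was higher. A match of these letters is a description of the sequence and not of a bound site.

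The libraries held 41931162 to 50882329 counts each. GPT2 checked the labels: it was at 93.8, 94.3 and 96.9 CPM (counts relative to the library total, scaled by TMM factors) in the GPT2si libraries and at 236, 229.9 and 219 CPM in the GPT2sinc libraries. The library GPT2si 2 stood apart from the other members of its group. Its chi-square per degree of freedom over genes was 41.4 and 50.8 against GPT2si 1 and 3, which differed from each other by 8.23, and pairs within GPT2sinc lay between 9.79 and 20.5. Values are therefore also given without GPT2si 2. Of 7 markers of epithelial and ovarian carcinoma cells, KRT8 was at 35.1 and KRT18 at 28.0 CPM, while WT1 had no count and PAX8 and MUC16 were at 0.185 and 0.0115 CPM. Their summed level was 57.5 to 60.2 CPM in GPT2sinc and 64.7 to 80.6 CPM in GPT2si. KRT8 and KRT18 were higher in each GPT2si library, and neither had an adjusted p under 0.05. EPCAM had a lower mean in GPT2si (1.94 CPM in GPT2sinc and 1.61 CPM in GPT2si) and KRT19 a higher mean (0.346 and 0.482 CPM). Both overlapped between the groups. The part of these markers in the glycogen gene values was not tested. In bulk RNA, fewer cells that express a gene and less RNA per cell cannot be told apart.

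**Figure D1:**
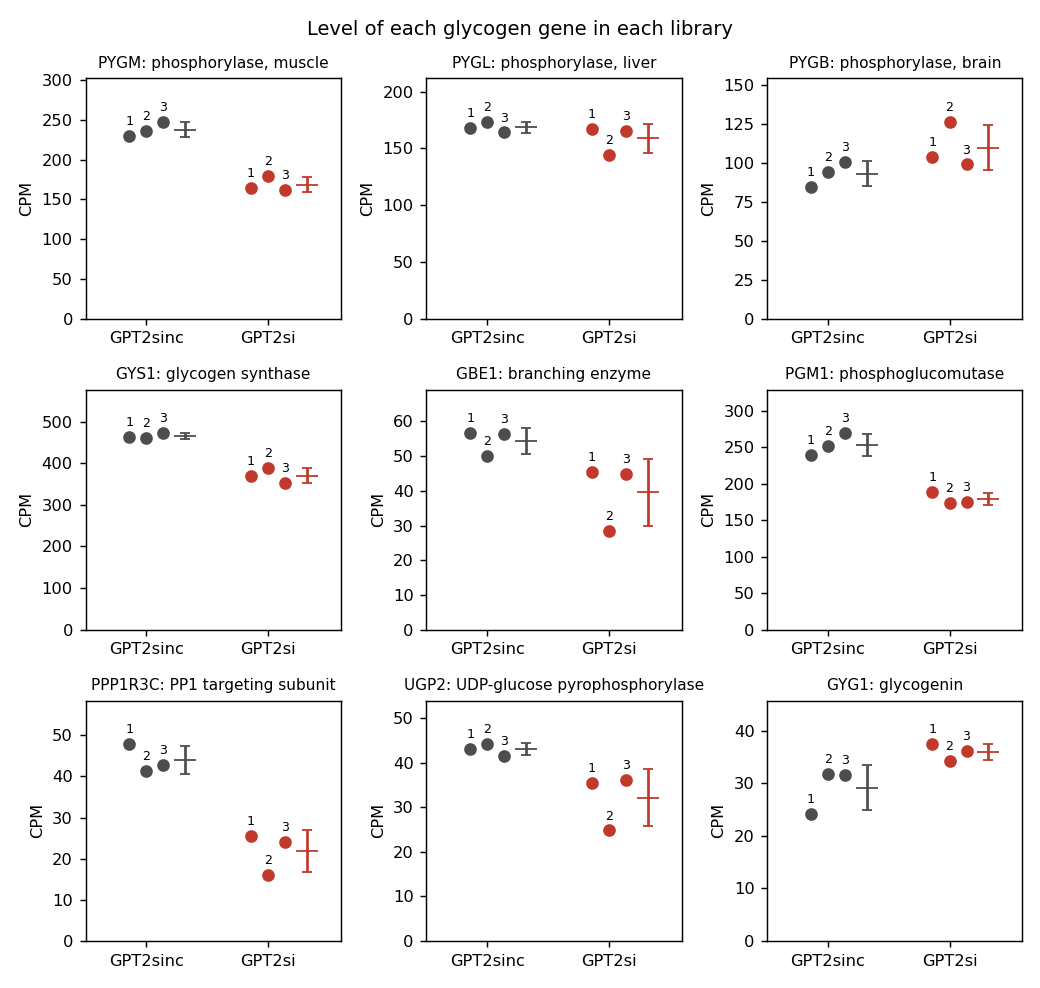
Level of each of the 9 glycogen genes in CPM (vertical axes, from 0) in the 3 GPT2sinc (grey) and 3 GPT2si (red) libraries, numbered by replicate, with the mean and SD beside the points. PPP1R3C, PGM1, PYGM, GYS1, GBE1 and UGP2 lie lower in each GPT2si library, GYG1 lies higher, and PYGL and PYGB overlap.

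Of the 5 enzymes that supply and polymerise glucose, PGM1 passed the threshold as lower, and GYS1, UGP2, GBE1 and GYG1 did not pass. Gene positions are those of GENCODE 29 on GRCh38, matched by Ensembl ID. GYS1 (ENSG00000104812, chr19:48968125-48993310, minus strand), the synthase, was at 463, 461 and 473 CPM in the GPT2sinc libraries and at 369.7, 389 and 352 CPM in the GPT2si libraries. No GPT2si library reached the lowest GPT2sinc value, and replicates of a group lay within a narrow band. The means were 465 ± 6.40 and 370.2 ± 18.6 CPM (SD, n = 3 each), a log2 fold change of −0.33 (SE 0.08). GYS1 missed the threshold in the main fit of all 6 libraries and passed it without GPT2si 2 (−0.38, SE 0.06). With all 6 libraries it also passed by DESeq2, with upper-quartile factors and with GC and length offsets. In all it passed in 4 of 14 alternative fits.

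PGM1 (ENSG00000079739, chr1:63593276-63660245, plus strand), which feeds glucose 6-phosphate toward glycogen, was at 239, 251 and 269.7 CPM in the GPT2sinc libraries and at 189, 173 and 175 CPM in the GPT2si libraries. All 3 GPT2si values lay below all GPT2sinc values, and GPT2si 2 was close to GPT2si 3. The means were 253 ± 15.4 and 179 ± 8.57 CPM, with a log2 fold change of −0.50 (SE 0.08).

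UGP2 (ENSG00000169764, chr2:63840940-63891562, plus strand), which makes UDP-glucose, was at 43.2, 44.2 and 41.5 CPM in the GPT2sinc libraries and at 35.5, 24.8 and 36.2 CPM in the GPT2si libraries. The groups did not overlap, and GPT2si 2 lay well under its partners. The log2 fold change was −0.42 (SE 0.14) with all libraries and −0.28 (SE 0.07) without GPT2si 2. The branching enzyme gene GBE1 (ENSG00000114480, chr3:81489699-81762161, minus strand) had the same shape, with 56.6, 50.02 and 56.4 CPM against 45.4, 28.3 and 44.8 CPM. Its log2 fold change was −0.46 (SE 0.17), and −0.28 (SE 0.08) without GPT2si 2. The size of the difference in both genes thus moved by over 1.5 times with that library. Neither UGP2 nor GBE1 passed the threshold in either fit.

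GYG1 (ENSG00000163754, chr3:148991341-149027668, plus strand), the primer, was the 1 gene of the 9 that was higher in each GPT2si library, at 37.4, 34.3 and 36.1 CPM against 24.2, 31.8 and 31.5 CPM. GPT2sinc 1 was the low value of its group, and the gap between the groups was small beside it. The log2 fold change was 0.30 (SE 0.12), which did not pass the threshold, and 0.18 without GPT2sinc 1. GYG1 has 3 pseudogene copies by name, each listed with 0 counts.

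PPP1R3C (ENSG00000119938, chr10:91628442-91633054, minus strand), the targeting subunit, showed the largest difference of the 9. Its level was 47.9, 41.3 and 42.9 CPM in the GPT2sinc libraries and 25.5, 16.0 and 24.0 CPM in the GPT2si libraries. All GPT2si libraries were far under the lowest GPT2sinc library, and GPT2si 2 was the lowest. The means were 44.0 ± 3.45 and 21.8 ± 5.11 CPM, a log2 fold change of −1.01 (SE 0.17), and −0.84 (SE 0.09) without GPT2si 2.

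Of the 3 phosphorylases PYGM passed the threshold as lower, and PYGL and PYGB did not pass and overlapped between the groups; the difference between isozymes was not tested. PYGM (ENSG00000068976, chr11:64746389-64760297, minus strand), the muscle isozyme, was at 229.6, 236 and 248 CPM in the GPT2sinc libraries and at 164, 179 and 162 CPM in the GPT2si libraries. All 3 GPT2si values were lower, and here GPT2si 2 was the highest of its group. The means were 238 ± 9.18 and 168 ± 9.51 CPM, with a log2 fold change of −0.50 (SE 0.08), and −0.56 (SE 0.06) without GPT2si 2.

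PYGL (ENSG00000100504, chr14:50857891-50944736, minus strand), the liver isozyme, was at 168, 174 and 164 CPM against 167, 144.5 and 166 CPM, and only GPT2si 2 lay under the GPT2sinc range. Its log2 fold change was −0.08 (SE 0.09), with −0.03 (SE 0.05) without GPT2si 2 and −0.13 without GPT2si 1. PYGB (ENSG00000100994, chr20:25248069-25298014, plus strand), the brain isozyme, was at 84.8, 94.3 and 100.4 CPM against 104, 126 and 99.0 CPM, so that GPT2si 3 overlapped the GPT2sinc group. Its log2 fold change was 0.24 (SE 0.11), and 0.11 (SE 0.07) without GPT2si 2. The spans of PYGB and ABHD12 overlap on opposite strands, as do those of PGM1 and ITGB3BP, and the strand setting used in counting was not given in the sources used here.

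Set on a scale per kilobase of joined exons, PYGM made up the largest share of phosphorylase transcripts in the GPT2sinc libraries and shared that place with PYGL in the GPT2si libraries. The PYGM share was 46.1, 45.3 and 46.7% in the GPT2sinc libraries and 36.2, 38.1 and 36.4% in the GPT2si libraries. The groups were well apart, with means of 46.0 ± 0.726% and 36.9 ± 1.07% (SD, n = 3 each). The PYGB share was 19.0, 20.1 and 21.1% against 25.5, 29.9 and 24.8%, higher in each GPT2si library. Shares of a common sum depend on each other, so a lower PYGM level alone raises the PYGB share. The PYGB level itself overlapped between the groups and did not pass the threshold. The PYGL share overlapped, at 33.9 ± 1.52% against 36.3 ± 3.82%. The 3 isozymes together came to 103.7 ± 3.27 CPM per kilobase in GPT2sinc and 91.5 ± 2.64 in GPT2si.

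**Figure D2:**
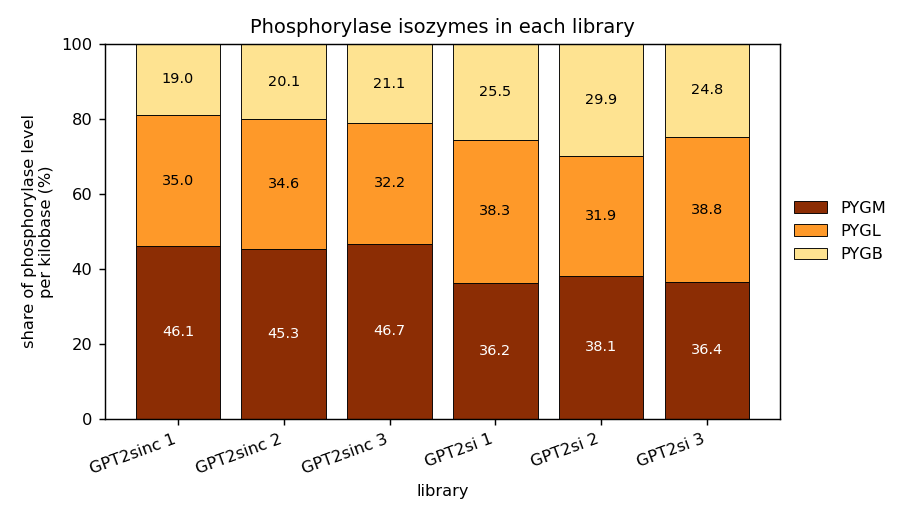
Share of each phosphorylase gene in the summed phosphorylase level per kilobase of joined exons (vertical axis, %) in each library (horizontal axis). PYGM takes 45.3 to 46.7% in the GPT2sinc libraries and 36.2 to 38.1% in the GPT2si libraries, and PYGB takes the smallest share in each of the 6 libraries.

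Markers of the tissues after which the isozymes are named were also read. Of 6 skeletal muscle markers 5 were in the table; the defining genes CKM, MYH2 and ACTA1 were at 0.0403, 0.00717 and 0.0837 CPM on average, and MB and TNNT3 at 21.4 and 3.38 CPM. The summed level of the 5 was 26.0 to 30.3 CPM in GPT2sinc and 20.7 to 24.2 CPM in GPT2si, lower as PYGM was. MB and TNNT3 made up most of it and were lower in each GPT2si library, and neither had an adjusted p under 0.05. ACTA1 had a higher mean in GPT2si (0.0597 CPM in GPT2sinc and 0.108 CPM in GPT2si), and CKM and MYH2 had lower means, all with overlap. The part of these markers in the PYGM difference was not tested. Liver markers summed to 0.646 to 0.915 CPM in GPT2sinc and 0.257 to 0.900 CPM in GPT2si over 6 genes, with TTR, APOB and CYP3A4 at 0 counts. The 5 brain markers summed to 11.6 to 12.1 CPM in GPT2sinc and 12.5 to 14.5 CPM in GPT2si, with SLC1A2 at 0 counts and SNAP25 at 0.0146 CPM. The higher sum in GPT2si came from MBP (8.57 and 11.3 CPM), while GFAP was lower in each GPT2si library (3.20 and 2.39 CPM). The PYGB mean was also higher in GPT2si, and the part of these markers in the PYGB values was not tested. Fibroblast markers overlapped between the groups (2786.2 to 2917.7 CPM in GPT2sinc and 2727.2 to 2951.4 CPM in GPT2si), mostly COL3A1, as did leukocyte (6.63 to 6.80 and 4.85 to 8.95 CPM) and endothelial markers (0.0430 to 0.299 and 0.0994 to 0.263 CPM).

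Between genes, levels were compared as CPM per kilobase. In GPT2sinc the order was GYS1 (109.6 ± 1.51), PGM1 (60.2 ± 3.66), PYGM (47.7 ± 1.84), PYGL (35.1 ± 0.981), PYGB (20.8 ± 1.75), PPP1R3C (17.4 ± 1.37), GBE1 (10.5 ± 0.729), GYG1 (8.31 ± 1.24) and UGP2 (6.61 ± 0.207; SD, n = 3 each). Of these neighbours only PYGB and PPP1R3C overlapped between libraries. GYS1 stood above 98.1% of all tested genes on this scale, and UGP2 above 66.8%. In GPT2si the first 5 places were held by the same genes, with PYGM (33.8 ± 1.91) and PYGL (33.2 ± 2.65) overlapping. PYGL stood above PYGM in GPT2si 1 and 3 and below it in GPT2si 2, so the order of that pair of means rests on GPT2si 2. GYG1 (10.2 ± 0.450), PPP1R3C (8.66 ± 2.02), GBE1 (7.64 ± 1.88) and UGP2 (4.94 ± 0.981) followed, and each overlapped the next.

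Over the 6 libraries the genes fell into unlike profiles, described here by log2 CPM centred on each gene's mean. PYGM, PGM1 and GYS1 had nearly the same profile: the root mean square difference was 0.08 between PYGM and PGM1 and 0.09 between PYGM and GYS1. In them the 3 GPT2si libraries lay close together, between −0.31 and −0.09. GBE1 and UGP2 formed another pair (0.10), in which GPT2si 2 lay at −0.69 and −0.57 and the other GPT2si libraries between −0.06 and −0.01. PPP1R3C combined both features, with −0.27 and −0.35 in GPT2si 1 and 3 and −0.94 in GPT2si 2.

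**Figure D3:**
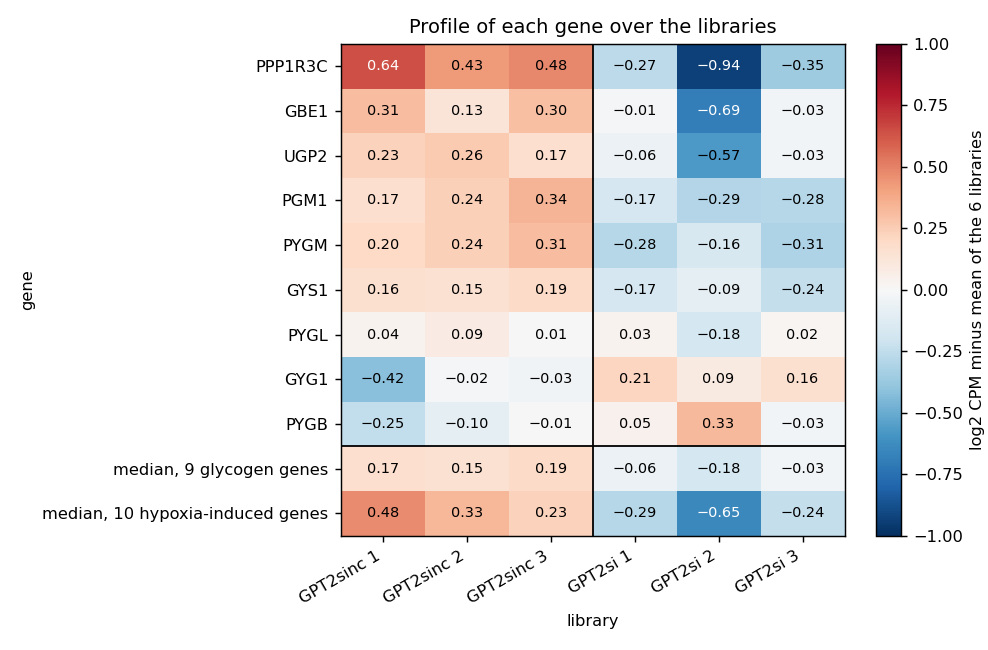
Log2 CPM of each gene minus its mean over the 6 libraries (colour and printed value), for the 9 glycogen genes and, below the line, for the medians of those genes and of 10 hypoxia-induced genes. GPT2si 2 stands at −0.94 in PPP1R3C, −0.69 in GBE1 and −0.57 in UGP2, but at −0.16 in PYGM and −0.09 in GYS1.

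The place of GPT2si 2 moved with the GC content of the transcripts. Over all tested genes, its log2 CPM minus the mean of GPT2si 1 and 3 had a median of −0.48 below 40% GC, −0.32 from 40 to 45%, −0.07 from 45 to 50%, 0.12 from 50 to 55% and 0.23 from 55 to 60%. Among the 9 genes it was −0.53 for UGP2 (38.9% GC), −0.63 for PPP1R3C (41.9%) and −0.67 for GBE1 (43.9%). It was −0.07 for PGM1 (47.7%), −0.10 for GYG1 (48.1%), 0.14 for PYGM (58.0%), 0.11 for GYS1 (58.7%) and 0.32 for PYGB (58.5%). PYGL (51.0%) lay at −0.20, on the other side of 0 from the median of its GC range. Each of UGP2, PPP1R3C and GBE1 thus lay under the median of its GC range in that library. The group contrast moved with GC content too. Its median log2 fold change over all tested genes was −0.16 below 40% GC, −0.07 from 40 to 45% and 0.003 from 45 to 50%. In the ranges above 50% it lay between 0.04 and 0.06. The part of GC content in the group differences of UGP2, PPP1R3C and GBE1 was not tested beyond the offsets. With GC and length trends of each library fitted as offsets, the log2 fold change was −0.94 (SE 0.11) for PPP1R3C, −0.40 (SE 0.11) for GBE1 and −0.27 (SE 0.08) for UGP2.

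**Figure D4:**
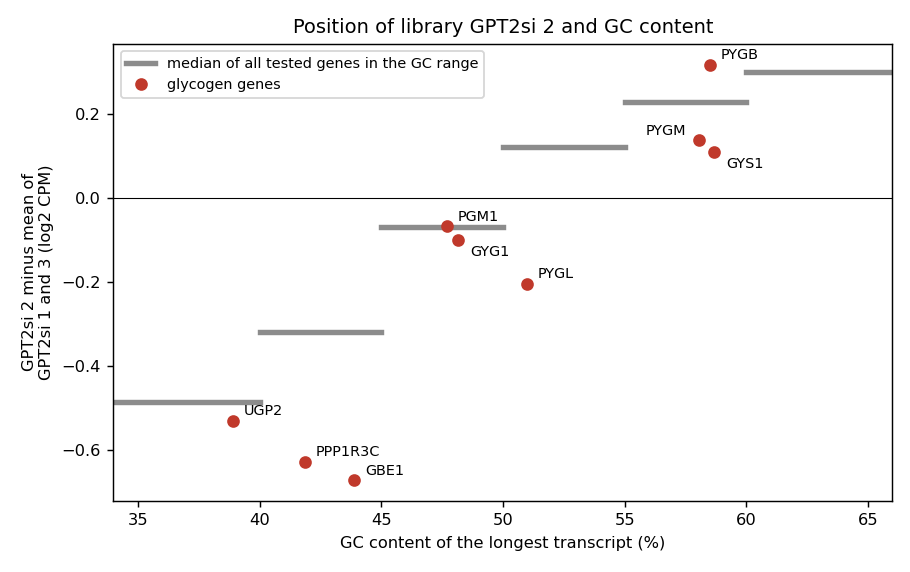
GPT2si 2 minus the mean of GPT2si 1 and 3 in log2 CPM (vertical axis) against GC content of the longest transcript (horizontal axis, %), for the 9 glycogen genes (points) and the median of all tested genes in each GC range (bars, cut at the edges of the plot). UGP2, PPP1R3C and GBE1, with 38.9 to 43.9% GC, sit between −0.67 and −0.53, and PYGM, GYS1 and PYGB, with 58.0 to 58.7% GC, sit above 0.

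The calls depended on which libraries entered. Without GPT2si 2, PYGM, GYS1, PGM1 and PPP1R3C passed as lower and 0 of the 9 as higher, where 2.62% of all tested genes were called lower and 2.15% higher. With the GC and length offsets 6 passed as lower, GBE1 and UGP2 added, where 4.12% of all genes were called lower. None of the 9 passed when any GPT2sinc library or GPT2si 1 was left out, fits in which at most 4 genes in all were called lower, and only PPP1R3C passed without GPT2si 3.

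Other genes of the pathway were read from lists fixed with earlier results of these data known. Of 63 genes in 6 such lists, 53 were tested, and 2 fell and 0 rose, against the 0.841% and 0.576% of all genes given above. Both fallen genes act where glucose enters the cell. SLC2A1, the glucose transporter GLUT1, had means of 262 ± 7.22 CPM in GPT2sinc and 193 ± 5.34 CPM in GPT2si (−0.44 on the log2 scale, SE 0.07, edgeR adjusted p = 0.0293, lower in 3 of 3 libraries). HK2, the hexokinase that traps glucose as glucose 6-phosphate, had means of 209 ± 11.9 and 144 ± 19.2 CPM (−0.54, SE 0.11, edgeR adjusted p = 0.0484). Over 14 alternative fits these adjusted p ran from 7.17e-05 to 0.187 for SLC2A1 and from 0.000573 to 0.230 for HK2. Neither passed when any 1 library other than GPT2si 2 was left out. The other 6 tested genes of that list did not pass; at an unadjusted p under 0.05, 6 of its 8 genes were lower, and its median was −0.28. Over all 17006 tested genes, 3332 had an unadjusted p under 0.05 in either direction, which is the background for such counts here and below.

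The remaining enzymes of glycogen itself did not pass. Of 9 such genes 7 were tested with 0 called, 0 at an unadjusted p under 0.05 and 0 by DESeq2, with a median of 0.03. GAA, the lysosomal glucosidase that degrades glycogen, was at 121 ± 2.99 CPM in GPT2sinc and 123 ± 19.5 CPM in GPT2si (log2 fold change 0.03, SE 0.11). GYG2, the paralog of glycogenin, was at 52.8 ± 2.00 CPM in GPT2sinc and 47.3 ± 0.726 CPM in GPT2si (−0.16, SE 0.09). GYS2, the liver synthase, had 0 counts in each library, which allows up to 0.0597 to 0.0770 CPM by counting error alone. So did NHLRC1, which codes for malin.

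Regulators of phosphorylase and synthase did not pass either. For phosphorylase kinase subunits and calmodulin, 0 of 8 tested genes were called, with 0 at an unadjusted p under 0.05 and 0 by DESeq2. CALM3, a calmodulin gene, was at −0.04 (SE 0.10) on the log2 scale. For protein phosphatase 1, 0 of 7 were called, with 2 lower at an unadjusted p under 0.05 and 0 by DESeq2; its catalytic subunit genes PPP1CA and PPP1CC were at 0.23 (SE 0.13) and −0.15 (SE 0.10). The 2 genes with an unadjusted p under 0.05, picked out after their values were seen, code for other glycogen-targeting subunits: PPP1R3B (−0.40, SE 0.15) and PPP1R3E (−0.46, SE 0.20), and both overlapped between the groups. PPP1R3A and PPP1R3G had 0 counts. Among kinases upstream of the synthase 0 of 14 were called, with 1 higher at an unadjusted p under 0.05 and by DESeq2, PRKAB1, a subunit of the AMP-activated kinase, named after its values were seen. AKT1 and PRKACA, the most abundant of them, were at 0.04 (SE 0.11) and 0.05 (SE 0.10).

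Genes that share UDP-glucose with the synthase were also not called, 0 of 9, with 1 higher at an unadjusted p under 0.05 and 0 by DESeq2. UGGT1, a glucosyltransferase of protein folding, was at −0.08 (SE 0.09). The seventh list held 10 hypoxia-induced genes outside glycogen metabolism. Of these 4 fell and 0 rose, where 0.841% of all genes were called lower and 0.576% higher. At an unadjusted p under 0.05 all 10 were lower, and the median log2 fold change was −0.80. By DESeq2 8 were lower, where it called 457 genes lower in all. The 4 that fell were CA9 (−1.18, SE 0.14), ANGPTL4 (−0.97, SE 0.11), BNIP3 (−0.75, SE 0.10) and NDRG1 (−0.96, SE 0.18), with edgeR adjusted p from 0.0115 to 0.0413. None of the 4 passed without GPT2sinc 1, GPT2sinc 2 or GPT2si 1, and only ANGPTL4 passed without GPT2sinc 3; NDRG1 was also lost without GPT2si 3. Their list was chosen with that fall known and is not independent support. Its centred median was 0.48, 0.33 and 0.23 in the GPT2sinc libraries and −0.29, −0.65 and −0.24 in the GPT2si libraries. The median of the 9 glycogen genes was 0.17, 0.15 and 0.19, and −0.06, −0.18 and −0.03, lowest in GPT2si 2 as well. Of the 9, 6 were lowest of their group in GPT2si 2, while PYGM, GYS1 and PYGB were highest there. That library moved with GC content over all tested genes, as given above.

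**Figure D5:**
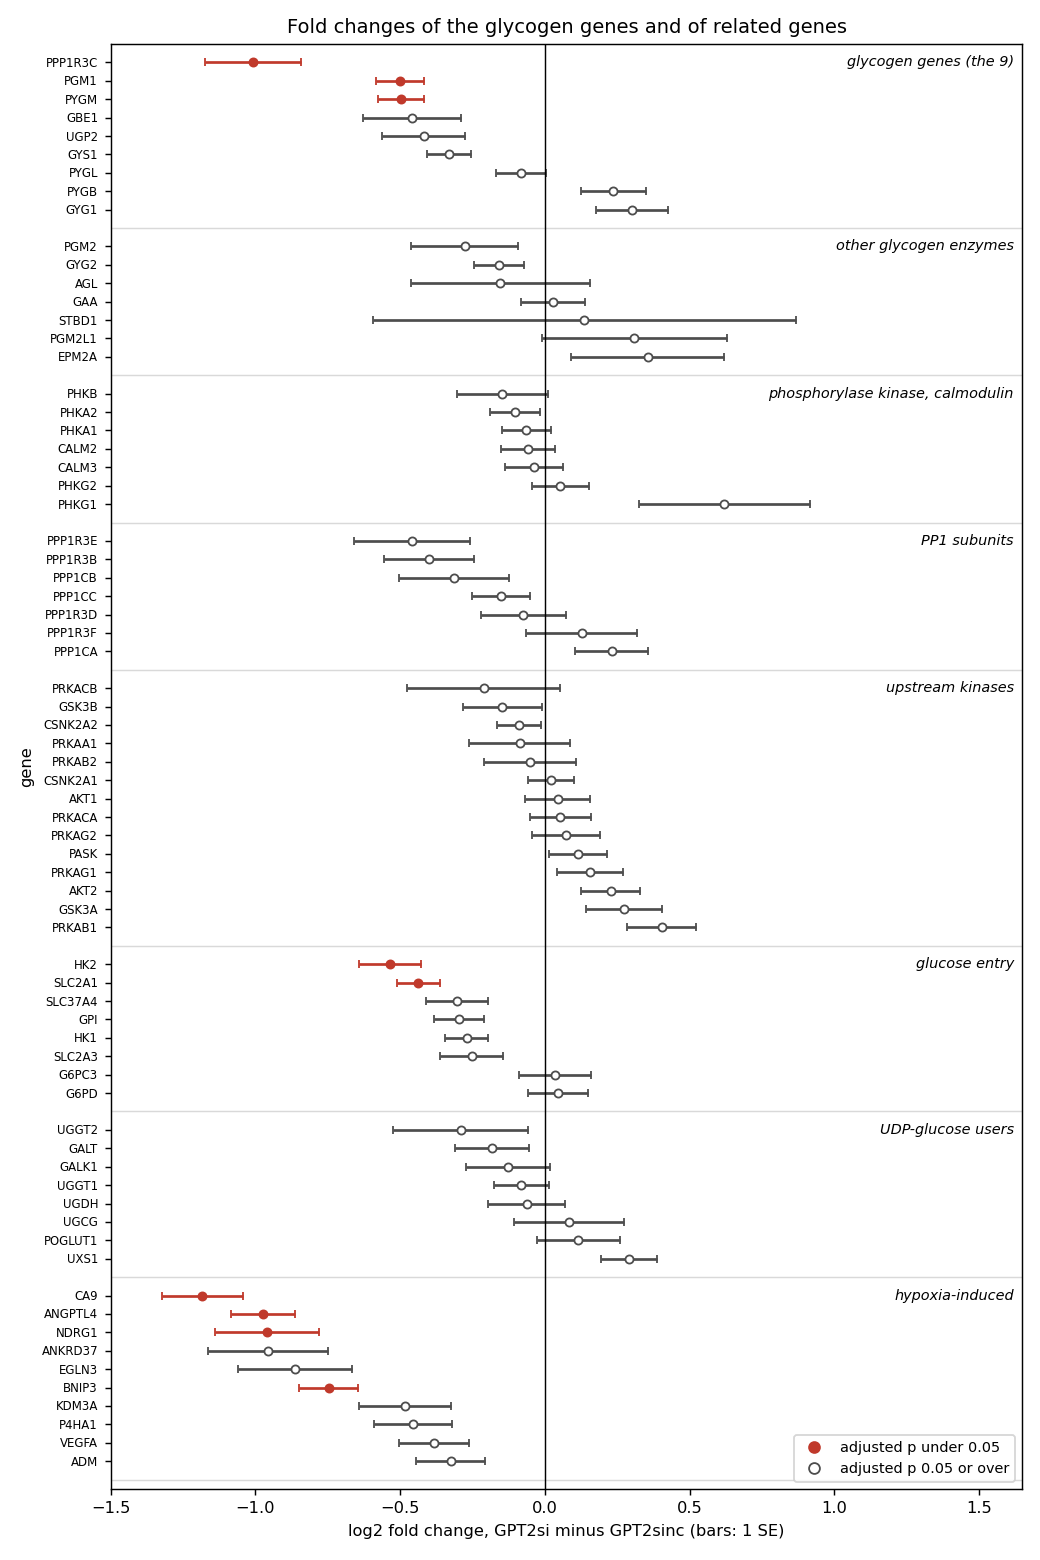
Log2 fold change of GPT2si minus GPT2sinc (horizontal axis, bars 1 SE) for the 9 glycogen genes and for tested genes of 7 related lists, of which 2 are not drawn; filled red points have an edgeR adjusted p under 0.05. PPP1R3C, PGM1 and PYGM are filled among the 9, SLC2A1 and HK2 among the other pathway genes, and 4 of 10 among the hypoxia-induced genes.

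PPP1R3C, with the largest change of the 9, was also compared with 10201 other protein-coding genes at a mean of 5 CPM or more by the root mean square difference of centred log2 CPM over the 6 libraries. The 5 closest profiles were those of CPNE5, a copine (0.07), CA5B, a mitochondrial carbonic anhydrase (0.10), CA9 (0.11), RIMKLA, a ligase that makes N-acetylaspartylglutamate (0.11), and PDK1, an inhibitor of pyruvate dehydrogenase (0.11). PDK1 was at 145, 129 and 124 CPM in the GPT2sinc libraries and at 86.0, 47.8 and 87.3 CPM in the GPT2si libraries. It thus repeated the low value of GPT2si 2 seen in PPP1R3C. These 6 libraries fall into 2 groups and share one outlying library, so a like profile is a description of them only.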

How the data were processed

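RNA of A2780 was sequenced as poly(A)-selected, dUTP-stranded libraries, per the labels' protocols. The authors deposited raw counts, whole numbers for each Ensembl gene ID with 1 column per library; 0 columns were left unmapped. Per the submitters' processing notes, CASAVA and StringTie were used; no role or version is listed. Aligner, counting program, strand setting, genome build and annotation were not given in the sources used here.

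The counts were fitted with edgeR 4.0.16 in R 4.3.3 (glmQLFit and glmQLFTest, TMM factors, filterByExpr, group as the only term). Benjamini-Hochberg adjustment ran over 17006 genes, with a threshold of 0.05. SE was derived from the F statistic, and the fit was tested on simulated data. CPM is scaled by TMM factors; per-kilobase values use joined exon lengths of GENCODE 29. Centred log2 CPM used a prior count of 2. Symbols came from the gene name table (60295 of 60564 rows), promoters from RefSeq, GRCh38.p14.

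The 9 genes and all lists were chosen with earlier results of these data known. Named genes are the 9, GPT2, list genes past the test (or the 2 most abundant of a list with none) and the 5 closest profiles to PPP1R3C; others are marked, and 2 genes that the rule names are not reported here. Alternatives were edgeR with DESeq2 size factors or upper-quartile factors, no filter, 1 CPM in 3 libraries, DESeq2 1.42.0, limma-voom (limma 3.58.1), a replicate block, GC and length offsets (98.9% of tested genes, loess span 0.5) and leaving out each library. Since nothing says that libraries came from separate cultures, p-values reflect only how these libraries vary, possibly for technical reasons. Without molecular identifiers reads are not independent, so floors cover counting error only.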

Additional observations from a re-analysis of the deposited data

How the results depend on the processing

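PYGM, PYGL, GYS1, GBE1, PGM1, PPP1R3C and UGP2 had a negative, and PYGB and GYG1 a positive, log2 fold change in each of the 14 alternative fits; PPP1R3C ran from −1.15 to −0.84. Over all tested genes, 98 were higher and 143 lower; these became 570 and 457 with DESeq2, 61 higher with DESeq2 size factors, 1246 and 700 with GC and length offsets, and 17 and 27 with no filter. Of the glycogen genes 3 were lower, 4 with DESeq2 or upper-quartile factors (GYS1 added), 6 with the offsets and 0 with no filter. Of the other pathway genes 0 were higher and 2 lower; these became 1 and 4 with DESeq2, 1 and 5 with the offsets, 1 lower with DESeq2 size factors or limma-voom, and 0 lower with no filter. Leaving out 1 library gave 0 to 377 genes higher and 1 to 459 lower, 0 to 4 glycogen genes lower and 0 to 6 other pathway genes lower, the upper ends without GPT2si 2. The replicate block gave 252 genes higher and 306 lower and the same 3 glycogen genes. Same-numbered libraries deviated from their group means with correlations of 0.0855, 0.114 and −0.187, and 2 of 6 libraries correlated best with their own number, so the numbers were not taken as pairs. Some genes near 0 that did not pass changed sign. Leaving out 1 library gave log2 fold changes of −0.124 to 0.098 for GAA, −0.126 to 0.029 for CALM3 (0.010 without GPT2si 3), −0.096 to 0.110 for AKT1 (−0.009 without GPT2sinc 1) and −0.064 to 0.113 for PRKACA (−0.008 without GPT2sinc 1). Upper-quartile factors gave −0.020 for GAA and −0.003 for AKT1, and the offsets gave 0.092 for UGGT1. STBD1 turned from 0.14 to −0.585 with the counts of FAM47E-STBD1 added. With the longest transcript as gene length the PYGB share was 14.8% in GPT2sinc and 20.2% in GPT2si. The causes were not tested.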

Other observations

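STBD1, a glycogen-binding protein linked to the delivery of glycogen to lysosomes, was picked out after its values were seen. It belongs to the list of other glycogen genes, and its level varied more than 4-fold within each group: 38.6, 7.06 and 6.94 CPM in the GPT2sinc libraries and 28.6, 4.44 and 24.5 CPM in the GPT2si libraries. FAM47E-STBD1, a separate record for transcripts that run through both genes, had the opposite pattern, with 0.480, 29.1 and 29.6 CPM in GPT2sinc and 0.139, 16.4 and 0.307 CPM in GPT2si. Each library thus had a high value in 1 record and a low value in the other. Added together, the records were at 39.0, 36.2 and 36.5 CPM in GPT2sinc and 28.8, 20.8 and 24.8 CPM in GPT2si, and the groups no longer overlapped. The log2 fold change of STBD1 was 0.14 (SE 0.73) as deposited and −0.58 (SE 0.13, edgeR adjusted p = 0.0593) with the counts of FAM47E-STBD1 added, a choice made after seeing the data. The summed value did not pass the threshold, and how reads were divided between the records was not given in the sources used here.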
